A study of Homo sapiens with 4 samples.

Results

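The S100 proteins are a family of small calcium-binding proteins, and 10 of their genes were followed in 4 RNA-seq libraries: S100A2, S100A3, S100A4, S100A6, S100A10, S100A11, S100A13, S100A14, S100A16 and S100P. The genes were picked by symbol, as the rows of the count table whose Ensembl identifiers carry these names in GENCODE, and all 10 were found among 61544 genes. The libraries came from HT29 and HCT116, which are established human colorectal carcinoma lines used as models of the intestinal epithelium. The 4 conditions were HT29 cells given lipopolysaccharide (LPS, a cell wall component of Gram-negative bacteria) at 1 ug/mL for 24 h, HT29 control cells, HCT116 cells given the same LPS treatment, and HCT116 control cells. The study compared how these lines, which differ in the basal level of the glucocorticoid receptor gene, responded to LPS. Each condition was 1 library, so a difference between LPS and control within a line has no replicate check.

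S100 proteins carry calcium-binding loops of the EF-hand type, mostly work as dimers, and on binding calcium expose a surface that grips partner proteins such as annexins, cytoskeletal proteins and receptors. Some act inside the cell on membranes and the cytoskeleton, and some are also released and bind the receptor AGER (RAGE) on other cells. In the gut the family is best known for calprotectin, the S100A8 and S100A9 complex of neutrophils that is measured in stool as a marker of intestinal inflammation, while epithelial cells themselves make other members.

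Of the 10 genes, 9 lie in a cluster on chromosome 1, between positions 151982915 and 153631360 of GRCh38, all on the minus strand. S100P stands alone at chr4:6693878-6697170 on the plus strand. The promoters of the 4 genes with the largest excess in HT29 are shown because the line difference described further on turns mainly on them. The 300-base windows run from 250 bases before to 50 bases after the transcription start in RefSeq (GRCh38.p14), are written 5′ to 3′ on the strand of the gene, and have in capitals the TATA box (TATAAA) or GC box (GGGCGG) where one was found. RefSeq windows were matched for all 10 genes, 14 windows in all. S100P lies on the plus strand at chr4:6693628-6693927, S100A10 on the minus strand at chr1:151993810-151994109, S100A11 on the minus strand at chr1:152036955-152037254, and S100A16 (its first window) on the minus strand at chr1:153613088-153613387.
S100P: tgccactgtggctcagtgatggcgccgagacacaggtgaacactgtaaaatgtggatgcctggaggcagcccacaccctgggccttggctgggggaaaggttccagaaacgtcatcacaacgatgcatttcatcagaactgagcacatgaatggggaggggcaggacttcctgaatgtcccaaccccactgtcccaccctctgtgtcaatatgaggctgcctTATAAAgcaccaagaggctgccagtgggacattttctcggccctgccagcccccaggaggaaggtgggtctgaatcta
S100A10: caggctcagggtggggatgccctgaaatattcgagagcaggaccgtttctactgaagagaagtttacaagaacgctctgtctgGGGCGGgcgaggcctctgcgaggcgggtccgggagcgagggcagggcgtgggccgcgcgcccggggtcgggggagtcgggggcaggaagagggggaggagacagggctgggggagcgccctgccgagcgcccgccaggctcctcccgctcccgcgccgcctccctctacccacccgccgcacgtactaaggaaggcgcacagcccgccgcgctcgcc
S100A11: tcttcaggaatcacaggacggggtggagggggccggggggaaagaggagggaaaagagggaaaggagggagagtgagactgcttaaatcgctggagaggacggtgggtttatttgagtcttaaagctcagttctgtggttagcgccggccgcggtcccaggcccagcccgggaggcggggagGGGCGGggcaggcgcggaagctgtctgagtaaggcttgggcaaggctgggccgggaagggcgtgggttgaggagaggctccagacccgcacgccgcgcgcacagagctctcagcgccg
S100A16: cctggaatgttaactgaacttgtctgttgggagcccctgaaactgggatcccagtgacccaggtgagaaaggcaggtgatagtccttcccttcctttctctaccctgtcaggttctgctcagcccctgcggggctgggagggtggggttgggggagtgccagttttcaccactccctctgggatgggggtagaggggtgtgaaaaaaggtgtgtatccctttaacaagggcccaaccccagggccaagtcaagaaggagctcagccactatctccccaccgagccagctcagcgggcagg

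No motif was found in the windows of all 4 genes. The motifs searched were the TATA box TATAAA, the CCAAT box, the GC box GGGCGG, the AP-1 element TGANTCA, the glucocorticoid receptor half-site AGAACA and the NF-kB element, each on both strands. The S100P window held a TATA box at bases −28 to −23 and 5 CpG dinucleotides. The S100A10 and S100A11 windows held a GC box, at −167 to −162 and at −68 to −63, with 32 and 22 CpG dinucleotides. The first S100A16 window held none of the motifs and 3 CpG dinucleotides, while a second S100A16 window, not printed, held a GC box at −45 to −40, CCAAT boxes at 2 positions and 8 CpG dinucleotides. Across all 35116 RefSeq windows of this length, 11.5% held TATAAA, 45.0% held GGGCGG, 34.6% held CCAAT, 7.7% held TGANTCA, 14.8% held AGAACA and 11.3% held the NF-kB element, and the quartiles of the CpG count were 4, 14 and 28. Among the windows of the other 6 genes, S100A6 had 31 CpG dinucleotides and GC boxes at 3 positions, S100A4 had a TATA box at −31 to −26, S100A14 had an NF-kB element at −202 to −193, and S100A3 had the AGAACA half-site. AP-1 elements lay in the first S100A2 window at −52 to −46 and in the S100A3 window at −225 to −219. The S100A3 window also held a GC box and CCAAT boxes at 2 positions. The S100A13 windows between them held a TATA box, a CCAAT box and a GC box. Such matches are letters found in a window and were not tested as binding sites.

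The libraries held between 19105058 and 21268959 counts, of which mitochondrial genes took 4.29% and 3.75% in HT29 and 7.16% and 5.01% in HCT116 (LPS and control). The glucocorticoid receptor gene NR3C1 had 0 and 1 counts in HT29, against 560 and 615 counts in HCT116. Of 10 epithelial markers, EPCAM, KRT8, KRT18, KRT19 and CDH1 were present in all 4 libraries, KRT20 was at 0 in all 4, and VIL1, CDX1 and LGALS4 were at 10 counts or fewer in HCT116, while CDX2 had 39 and 18 counts in HT29 and 572 and 474 counts in HCT116. The summed CPM of 7 leukocyte markers was 7.59 and 8.38 in HT29 and 2.73 and 3.24 in HCT116, with CD3E at 0 in all 4 libraries. Most of the HT29 sum came from CD14, with 137 and 140 counts in HT29, against 9 and 12 counts in HCT116 (LPS and control). The summed CPM of 6 stromal markers was 3.17 and 4.40 in HT29 and 103 and 106 in HCT116, and nearly all of it came from COL1A1, while COL1A2, PDGFRA and DCN were at 0. The summed CPM of 4 endothelial markers was 1.54 and 2.30 in HT29 and 2.07 and 2.68 in HCT116, with CDH5 at 0. The part of these markers in the S100 values was not tested.

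The 10 S100 genes together were a larger fraction of the transcripts in HT29. Levels of different genes were compared as TPM, that is, counts divided by exon length and scaled to the same sum in each library. Their summed TPM was 11195 and 12463 in HT29 (LPS and control), against 4800 and 5012 in HCT116. These sums were 1.12% and 1.25% of all TPM in HT29, and 0.48% and 0.501% in HCT116. S100A6 (calcyclin), which binds the ubiquitin ligase adaptor CACYBP, had the highest TPM of the 10 in every library, with 35.7% and 36% of the summed TPM in HT29 and 51.1% and 48.7% in HCT116. Without S100A6 the sum was 7201 and 7974 TPM in HT29 and 2347 and 2569 TPM in HCT116, so the gap between the lines did not rest on that gene alone.

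**Figure D1:**
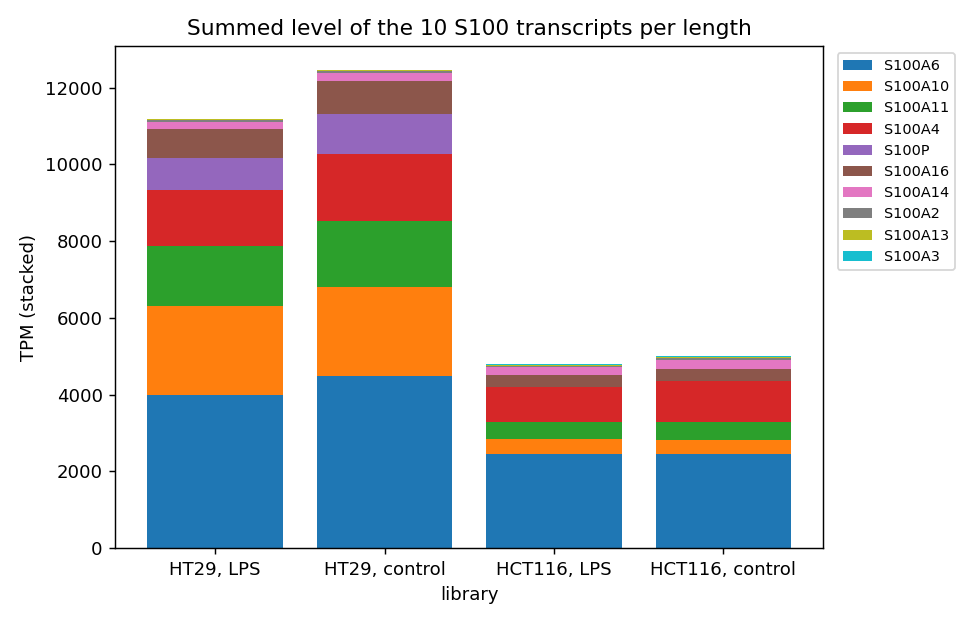
Stacked TPM of the 10 S100 transcripts in each of the 4 libraries, 1 bar per library with the genes in different colours. The HT29 bars reach 11195 and 12463 TPM (LPS and control) and the HCT116 bars 4800 and 5012 TPM, with S100A6 as the bottom and deepest layer.

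By TPM the genes below S100A6 came in a different order in the lines. In HT29, S100A10 was next with 2325 and 2320 TPM (LPS and control), which is rank 36 among all genes in both libraries. S100A11 and S100A4 were close to each other there, with 1568 and 1709 TPM for S100A11 and 1445 and 1757 TPM for S100A4. They exchanged ranks between the libraries, but with the length of the longest transcript S100A4 was above S100A11 in both. In HCT116, S100A4 was next after S100A6 with 915 and 1057 TPM, and S100A11 (427 and 456 TPM) and S100A10 (406 and 390 TPM) were neighbours whose order depended on the length used. S100P and S100A16 followed in HT29, with 840 and 1040 TPM for S100P and 761 and 853 TPM for S100A16, and their order also turned with the length of the longest transcript. In HCT116, S100A16 stood at 321 and 332 TPM and S100P at 0.349 and 0.345 TPM. The other 4 genes were below these in HT29, and in HCT116 they were below S100A16 and above S100P. S100A14 had 178 and 202 TPM in HT29 and 187 and 230 TPM in HCT116, and the highest value of S100A2, S100A13 or S100A3 in any library was 52.7 TPM.

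**Figure D2:**
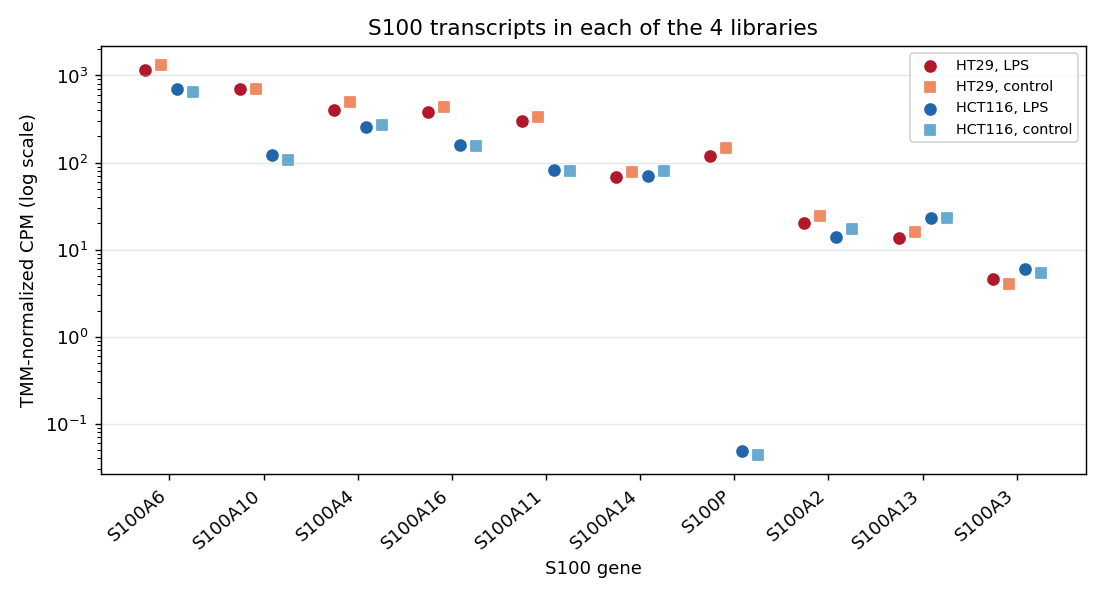
CPM (counts scaled to library size with TMM factors, logarithmic axis) of each S100 gene in the 4 libraries, red for HT29 and blue for HCT116, circles for LPS and squares for control. The red points of S100P lie at 118 and 147 CPM and its blue points at 0.0483 and 0.0442 CPM, while those of S100A14 lie together between 67.5 and 79.8 CPM.

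The first comparison was between the lines. S100P, S100A10, S100A11, S100A16, S100A6, S100A4 and S100A2 were higher in HT29, S100A13 was lower, and S100A3 and S100A14 did not pass the test. The quasi-likelihood test of edgeR, with LPS as a block, was fitted on 14523 genes averaging 1 CPM or more, and its p-values were adjusted over all of them by the Benjamini-Hochberg method, with calls at 0.05. In this fit the LPS and control libraries of a line stand in for replicates and leave 1 residual degree of freedom. That degree of freedom reflects how far the line difference was unequal with and without LPS. The variance is mostly borrowed over genes (20.6 degrees of freedom in total), so the p-values measure no spread between replicate cultures. The lines differ at most genes: 76.6% of all genes tested were called, 37.8% as higher in HT29 and 38.8% as lower, so 8 of 10 called S100 genes is close to the background. Of the 10 genes, 4 were called with a log2 fold change over 1, and 16.5% of all genes tested were called as higher in HT29 by that much. Both of these S100 counts include S100P, which passed the 1 CPM filter only through HT29, so its call adds no support. The median log2 fold change was 0.82 over the 10 S100 genes and −0.02 over all genes tested. The fold sizes and the values in each library therefore carry the description.

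S100P, which was first purified from placenta, is made by many carcinomas and binds both ezrin and AGER, separated the lines almost completely. It had 2338 counts (118 CPM) in HT29 with LPS and 2647 counts (147 CPM) in HT29 control, against 1 count each (0.0483 and 0.0442 CPM) in HCT116 with LPS and HCT116 control. Both HT29 libraries were far above both HCT116 libraries, where single counts cannot be told from stray reads. Summed over LPS and control, the ratio of depth-scaled counts was 2850-fold, with a 95% interval of 789 to 23538 that covers counting error only. S100P passed the filter of a mean of 1 CPM only through HT29. Its call in the edgeR quasi-likelihood test therefore adds no support, and the p-value is left out. The fitted fold change is not given either, because it depends on the prior count at so few counts.

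S100A10 (p11) is the annexin A2 ligand of the family, keeps its active shape without calcium and brings plasminogen to the cell surface. It had 700.0 and 703 CPM in HT29 with LPS and control, against 121 and 107 CPM in HCT116 with LPS and control. The HT29 pair differed from each other by far less than from the HCT116 pair, and the lines did not overlap. Its log2 fold change was 2.62 ± 0.07 (SE, 2 libraries per line), a 6.17-fold excess in HT29 (adjusted p = 2.845e-18, edgeR quasi-likelihood test, Benjamini-Hochberg adjusted). The SE, here and below, was derived from the statistic of this test and not from the spread of the 2 libraries of a line. With length and GC trends removed, the log2 fold change was 2.28 for S100A10, 1.76 for S100A11 and 1.72 for S100A16.

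S100A11 (calgizzarin), a partner of annexin A1, had 303 and 332 CPM in HT29 with LPS and control, against 81.6 and 80.5 CPM in HCT116 with LPS and control. The HCT116 values were nearly equal and both lay well under the HT29 values. The fold was 3.92 (log2 1.97 ± 0.07, SE, adjusted p = 1.524e-16 by the edgeR quasi-likelihood test, Benjamini-Hochberg adjusted). Parts of the S100A11 transcript have copies at 10 other places of the genome, the closest with 90.7% identity, and how the counting treated reads that match several places was not stated.

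S100A16, a member found in most tissues, had 385 and 435 CPM in HT29 with LPS and control, against 161 and 154 CPM in HCT116 with LPS and control. Its 2.60-fold excess (log2 1.38 ± 0.07, SE, adjusted p = 1.143e-13) was the smallest of the 4 above a log2 fold change of 1 in the edgeR quasi-likelihood test, Benjamini-Hochberg adjusted. S100A16 and S100A14 are neighbours, with S100A16 at chr1:153606886-153613145 and S100A14 at chr1:153614255-153616986, and their line differences were unlike.

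S100A6 and S100A4 were higher in HT29 by less than a log2 fold change of 1, although S100A6 reached 1.28 with length and GC trends removed. S100A6 had 1154 and 1306 CPM in HT29 with LPS and control, against 701 and 645 CPM in HCT116 with LPS and control, a 1.83-fold excess (log2 0.87 ± 0.08, SE). S100A4 (metastasin), which binds non-muscle myosin and is known for its link to cell movement, had 407 and 498 CPM in HT29, against 255 and 272 CPM in HCT116 (LPS and control), a 1.71-fold excess (log2 0.77 ± 0.07, SE). The HT29 values of both genes lay above all HCT116 values, and the adjusted p-values of the edgeR quasi-likelihood test, Benjamini-Hochberg adjusted were 2.344e-09 for S100A6 and 1.346e-09 for S100A4. S100A3, which is known from the hair cuticle, lies inside the span of S100A4 but shares 0 exon bases with it, and its values went the other way.

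S100A2, mainly a nuclear protein of epithelial cells that can bind p53, had 404 and 440 counts (20.4 and 24.4 CPM) in HT29 with LPS and control, against 289 and 395 counts (13.96 and 17.46 CPM) in HCT116 with LPS and control. The lines did not overlap, but the lowest HT29 value and the highest HCT116 value were close. The log2 fold change was 0.51 ± 0.14 (SE, adjusted p = 0.003017, edgeR quasi-likelihood test, Benjamini-Hochberg adjusted). This call was lost in the same test without HT29 control (0.37, adjusted p = 0.05294) and without HCT116 with LPS (0.35, adjusted p = 0.07313), both fitted without the block.

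S100A13, which takes part in the release of FGF1 and IL1A by a route outside the classical secretory pathway, was the only called member that was lower in HT29. It had 273 and 288 counts (13.75 and 15.97 CPM) in HT29 with LPS and control, against 478 and 519 counts (23.1 and 22.9 CPM) in HCT116 with LPS and control. The lines did not overlap, and the log2 fold change was −0.63 ± 0.15 (SE, adjusted p = 0.0005341, edgeR quasi-likelihood test, Benjamini-Hochberg adjusted). Of its exon bases, 33.5% are shared with S100A1 on the opposite strand or with a long non-coding RNA on its own strand, and reads from the shared bases cannot be assigned with certainty.

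S100A3 and S100A14 did not pass the test. S100A3 had 91 and 73 counts (4.58 and 4.05 CPM) in HT29 with LPS and control, against 125 and 123 counts (6.04 and 5.44 CPM) in HCT116 with LPS and control, and its log2 fold change of −0.41 had an interval of −0.96 to 0.13. S100A14, an epithelial member that binds little calcium, had 67.5 and 77.1 CPM in HT29, against 70.4 and 79.8 CPM in HCT116 (LPS and control). Its values overlapped between the lines, with a log2 fold change of −0.06 and a narrow interval of −0.21 to 0.10. With library size as the only scaling S100A14 was called lower in HT29 (−0.21, adjusted p = 0.01993, edgeR quasi-likelihood test, Benjamini-Hochberg adjusted), a setting that moves the median of all genes by −0.15.

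**Figure D3:**
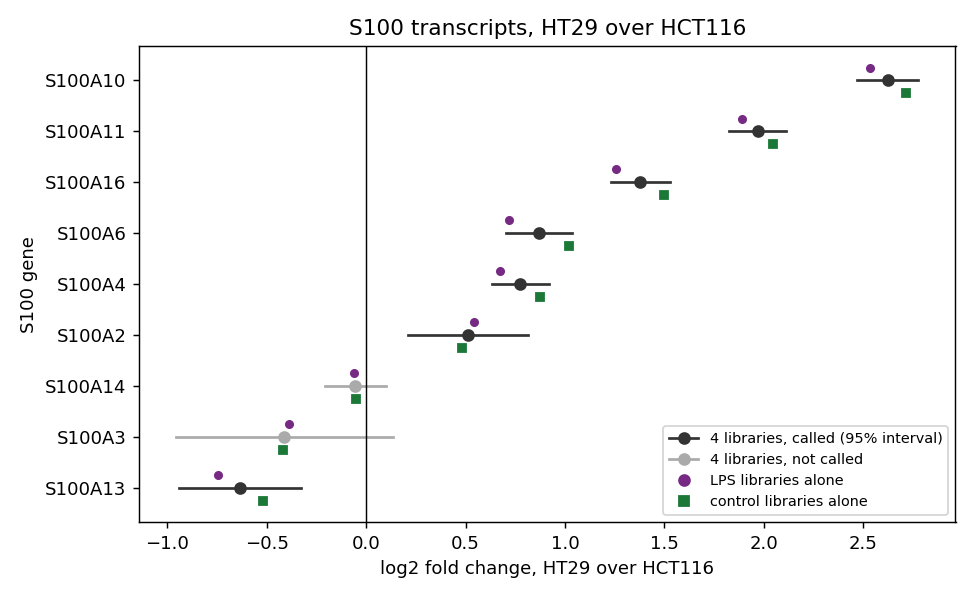
Log2 fold change of HT29 over HCT116 for 9 S100 genes (S100P, beyond the axis, is left out), with dark points and 95% intervals for called genes, grey for those not called, and small marks for the ratio in the LPS libraries alone and the control libraries alone. S100A10 stands highest at 2.62 and S100A13 lowest at −0.63, and the marks of each gene lie on the same side of 0.

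The difference between the lines was present with and without LPS. In the LPS libraries alone the log2 ratio of HT29 over HCT116 was 2.53 for S100A10, 1.89 for S100A11, 1.26 for S100A16, 0.72 for S100A6 and 0.68 for S100A4. In the control libraries alone it was 2.71 for S100A10, 2.05 for S100A11, 1.499 for S100A16, 1.02 for S100A6 and 0.87 for S100A4. Each of these 5 ratios was smaller in the LPS libraries. S100A2 had 0.54 in the LPS and 0.48 in the control libraries, and S100A13 had −0.74 and −0.52. These are ratios of 1 library to 1, and whether they differ with LPS was not tested.

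The chromosome 1 interval from S100A10 to S100A13 spans 1.648 Mb and also holds the late cornified envelope and other epidermal genes. Of its 62 protein-coding genes, 34 were at 0 in all 4 libraries and 11 averaged 1 CPM or more. These 11 were the 9 S100 genes followed here, S100A5 and SPRR1B. SPRR1B, a cornified envelope precursor, had 173 and 120 counts in HT29 with LPS and control, against 0 and 1 counts in HCT116 with LPS and control.

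The second comparison was LPS over control within each line. Of the S100 genes followed, 0 of 10 in HT29 and 0 of 9 in HCT116 moved beyond a log2 ratio of 0.58 (1.49-fold). Over all genes 5.87% of 13073 in HT29 and 6.19% of 14463 in HCT116 did, so a count of 0 among so few genes is close to the background. These are ratios of 1 library to 1 on the log2 scale with a prior count of 2, and their 95% intervals cover counting error only.

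In HT29 with LPS, 9 of the 10 genes were lower than in HT29 control, all by small amounts, and S100A3 was higher. The counting interval of S100A3, −0.28 to 0.64, included 0. Over all genes 6778 of 13073 were lower, and so were 23 of 30 other EF-hand genes from the list described further on. The log2 ratios of the S100 genes ran from −0.32 for S100P to 0.18 for S100A3, with a median of −0.19, against −0.0080 over all genes. S100P (118 CPM with LPS and 147 CPM in control) had a counting interval of −0.40 to −0.24. S100A4 (407 and 498 CPM) had a log2 ratio of −0.29, with an interval of −0.34 to −0.25. S100A2 stood at −0.26, S100A6 at −0.18, S100A16 at −0.17, S100A14 at −0.19 and S100A11 at −0.13, each with an interval below 0. S100A13 stood at −0.21, with an interval of −0.46 to 0.03 that included 0. S100A10 was level at −0.0068, and its sign turned to 0.0072 with library size as the only scaling and to 0.0244 with length and GC trends removed, a setting that left 8 of 10 genes below 0.

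In HCT116 with LPS, 6 of the 9 genes with at least 1 CPM were higher than in HCT116 control and 3 were lower, with a median of 0.02. Over all genes 7162 of 14463 were higher. S100A2 had the lowest ratio, with 13.96 CPM with LPS and 17.46 CPM in control (−0.32, interval −0.55 to −0.10). S100A14 followed at −0.18 (70.4 and 79.8 CPM) and S100A4 at −0.09. S100A10 had the highest ratio, with 121 CPM with LPS and 107 CPM in control (0.17, interval 0.09 to 0.25), and S100A6 was at 0.12. S100A11 (0.02), S100A13 (0.0094) and S100A16 (0.07) were near 0, and each of the 3 had an interval that included 0. S100A3 was at 0.15, and its interval of −0.22 to 0.52 also included 0. S100A11 and S100A13 turned to −0.0057 and −0.0158 with library size as the only scaling, and with length and GC trends removed S100A11 (−0.0068), S100A13 (−0.0524) and S100A16 (−0.0045) were below 0. In that setting 3 of the 9 genes were higher and 6 were lower, with a median of −0.0068, and S100A6 was at 0.0567. S100P, at 1 count with LPS and 1 in control, gave no ratio.

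**Figure D4:**
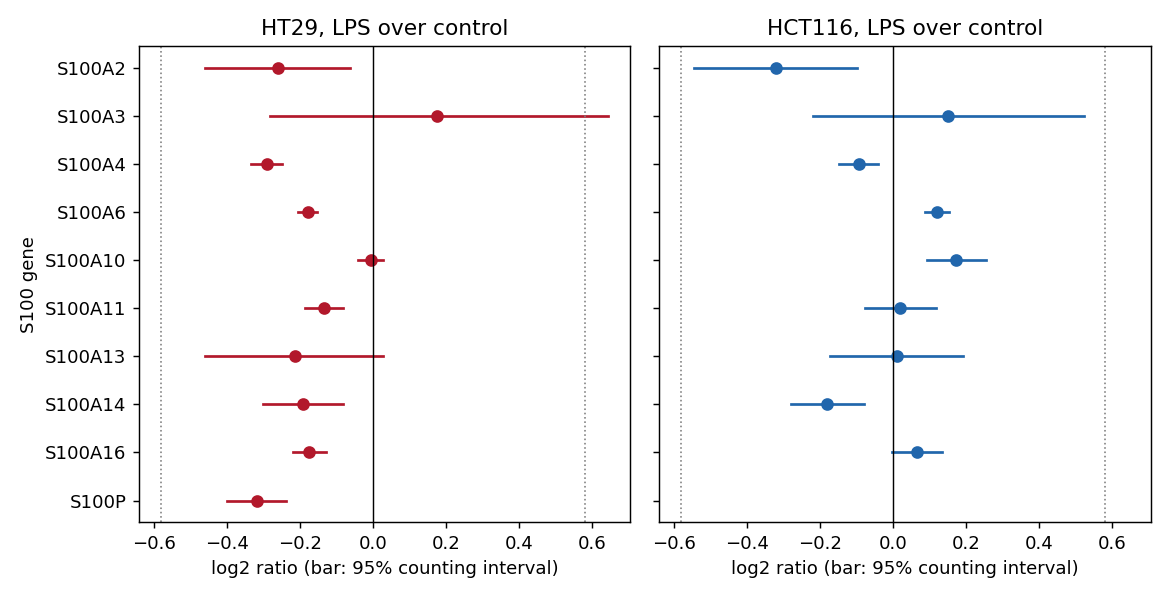
Log2 ratio of LPS over control for each S100 gene in HT29 (left, red) and HCT116 (right, blue), with bars for the 95% counting interval and dotted lines at 0.58 on either side of 0. No point passes a dotted line, the HT29 points lie at or below 0 except S100A3 at 0.18, and S100P is left out for HCT116, where it had 1 count per library.

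A change with LPS shared by both lines was tested on all 4 libraries by edgeR's quasi-likelihood test with the cell line as a block. It called 0 of the 10 S100 genes, against 0.234% of all genes tested (34 of 14523). DESeq2 called 0 of the 7 S100 genes to which it gave an adjusted p, and gave none to S100A2, S100A3 and S100A13. At an unadjusted p under 0.05 there were 3 S100 genes, S100P, S100A4 and S100A14, against 7.61% of all genes tested. S100P had a log2 fold change of −0.32, and its value rests on HT29, since HCT116 held 1 count in each library. The adjusted p of S100P was 0.3485 in the edgeR quasi-likelihood test. S100A4 had −0.19 (adjusted p = 0.4171) and S100A14 had −0.19 (adjusted p = 0.5325) in the edgeR quasi-likelihood test, Benjamini-Hochberg adjusted. S100A2, S100A4 and S100A14 were the genes with a ratio below 0 in both lines, at −0.26 in HT29 and −0.32 in HCT116 for S100A2, −0.29 and −0.09 for S100A4, and −0.19 and −0.18 for S100A14.

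Genes known to respond to LPS were also looked up. In HT29 the chemokine gene CXCL1 had 521 counts with LPS and 97 in control, CCL20 had 57 and 2, and CXCL8 had 494 and 202. In HCT116 CXCL1 had 7 and 19 counts, CCL20 had 2 and 2, and CXCL8 had 4 and 15 (LPS and control). NFKBIA had a log2 ratio of −0.18 in HT29. TNF was at 0 in every library, and IL6 had counts only in HCT116 with LPS, where it had 2. Of 8 genes of the list with at least 1 CPM in HT29, 6 were higher with LPS by more than 0.58, against 3.32% of all genes, and in HCT116 0 of 4 were, against 3.69% of all genes. The S100 values in HT29 thus stand beside a library with raised chemokine counts, and those in HCT116 beside one without.

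Of the other 11 S100 genes looked up, 4 had any count. S100A5, which neighbours S100A6, had 96 and 83 counts in HT29 with LPS and control, against 105 and 121 counts in HCT116 with LPS and control. S100A1, best known from muscle, had 45 and 33 counts in HT29, against 53 and 32 counts in HCT116 (LPS and control). Neither was called between the lines. The S100A1 ratio of LPS over control in HCT116 was 0.81 with an interval of 0.20 to 1.54, and some of its exon bases are shared with S100A13 and with non-coding RNAs on the opposite strand. S100A9 had 1 count in HT29 control and S100B had 4 counts in HCT116 control. The calprotectin gene S100A8, the neutrophil gene S100A12 and the other 5 genes were at 0 in all 4 libraries, which allows an expected count of up to 3 in each library.

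The binding partners of S100 proteins were next set beside the S100 genes. Of 23 partner genes, 19 averaged 1 CPM or more, and between the lines 9 were higher in HT29, 7 were lower and 3 were not called, with a median log2 fold change of 0.12. Over all genes tested 37.8% were higher and 38.8% lower in HT29, and 76.6% were called, so the partners' count of calls is close to the background. HLTF and KCNK3, counted as lower, passed the 1 CPM filter only through HCT116, and TRPV6, counted as higher, only through HT29. The calls of these genes add no support. ANXA2 (annexin A2), the partner of S100A10, had 1885 and 1976 CPM in HT29 with LPS and control, against 1324 and 1269 CPM in HCT116 with LPS and control, a log2 fold change of 0.57 ± 0.08 (SE) where S100A10 had 2.62. ANXA1, the partner of S100A11, had a log2 fold change of 0.37 ± 0.07 (SE), where S100A11 had 1.97. Both annexins thus differed between the lines in the same direction as their S100 partners and by less on the log2 scale, although the difference between gene and partner was not tested.

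Other partners differed in both directions. ANXA11, which also binds S100A6, was higher in HT29 with 398 and 412 CPM, against 205 and 207 CPM in HCT116 (LPS and control). AHNAK, a giant scaffold that binds the annexin A2 and S100A10 complex, was higher with 1435 and 1233 CPM in HT29, against 573 and 678 CPM in HCT116. The scaffold IQGAP1 was higher by 0.72 on the log2 scale and CACYBP by 0.29, a call that CACYBP lost with library size as the only scaling, while MYH9, the myosin heavy chain that S100A4 binds, did not pass the test at 0.12 and ran from −0.04 with that scaling to 1.17 with length and GC trends removed. The calcium channel TRPV6, which S100A10 helps to bring to the membrane, had 2.12 and 1.72 CPM in HT29 and 0.387 and 1.10 CPM in HCT116, and its call was lost under DESeq2 (adjusted p = 0.1217).

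The S100P partners EZR and AGER were lower in HT29, where S100P was higher. EZR (ezrin), the linker of membrane and actin, had 624 and 610 CPM in HT29, against 1470 and 1488 CPM in HCT116 (LPS and control), for a log2 fold change of −1.26 ± 0.07 (SE). AGER was low in both lines, with 2.27 and 1.66 CPM in HT29, against 6.52 and 5.79 CPM in HCT116 (log2 −1.65 ± 0.31, SE). MDM2, the p53 regulator, was lower in HT29 by a log2 fold change of −2.08 and ANXA6 by −5.62. The potassium channel gene KCNK3 had 1 and 6 counts in HT29, against 78 and 67 counts in HCT116 (LPS and control), and its log2 fold change of −4.14 moved to −3.31 without HT29 with LPS and to −5.90 without HT29 control. HLTF, a DNA translocase, had 0 counts in both HT29 libraries and 46.5 and 50.9 CPM in HCT116, at least 306-fold lower in HT29 against a floor of 3 counts per library. With LPS, 1 of 17 partners with at least 1 CPM in HT29 and 0 of 18 in HCT116 lay beyond 0.58, against 5.87% and 6.19% of all genes. That 1 was ANXA6, at 0.90 in HT29, with 2.87 CPM with LPS and 1.497 CPM in control. Partners under 1 CPM in a line were not counted, such as KCNK3 in HT29 and TRPV6 in HCT116 (8 and 25 counts, LPS and control). The shared LPS test called 0 of 19 (1 at an unadjusted p under 0.05, against 7.61% of all genes tested).

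Genes of other EF-hand proteins were also set beside the S100 genes. Of 29 tested, 19 were higher in HT29, 5 were lower and 5 were not called, with a median log2 fold change of 0.43, beside 37.8% higher and 38.8% lower over all genes tested. RCN3, counted as higher, passed the 1 CPM filter only through HT29, so its call adds no support. CALB2 (calretinin) had 186 and 221 CPM in HT29 with LPS and control, against 5.22 and 5.08 CPM in HCT116 with LPS and control. RCN3, a calcium-binding protein of the secretory pathway, had 8.56 and 6.93 CPM in HT29 and 0.145 and 0.133 CPM in HCT116, while its relative RCN1 was lower in HT29 with 27.5 and 28.0 CPM, against 86.7 and 109 CPM in HCT116. TESC (tescalcin) and PDCD6 were higher by 2.46 and 1.94 on the log2 scale. The actin cross-linker ACTN1 (−0.36), the protease subunit CAPN2 (−0.25) and the centrin CETN3 (−0.56) were lower by small amounts, and with length and GC trends removed ACTN1 turned to 0.40 and CAPN2 was at −0.0003. With LPS the shared test called 0 of 29 EF-hand genes (8 at an unadjusted p under 0.05, against 7.61% of all genes tested). Of 30 with at least 1 CPM in HT29 and 30 in HCT116, 0 lay beyond 0.58 in either line, against 5.87% and 6.19% of all genes.

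**Figure D5:**
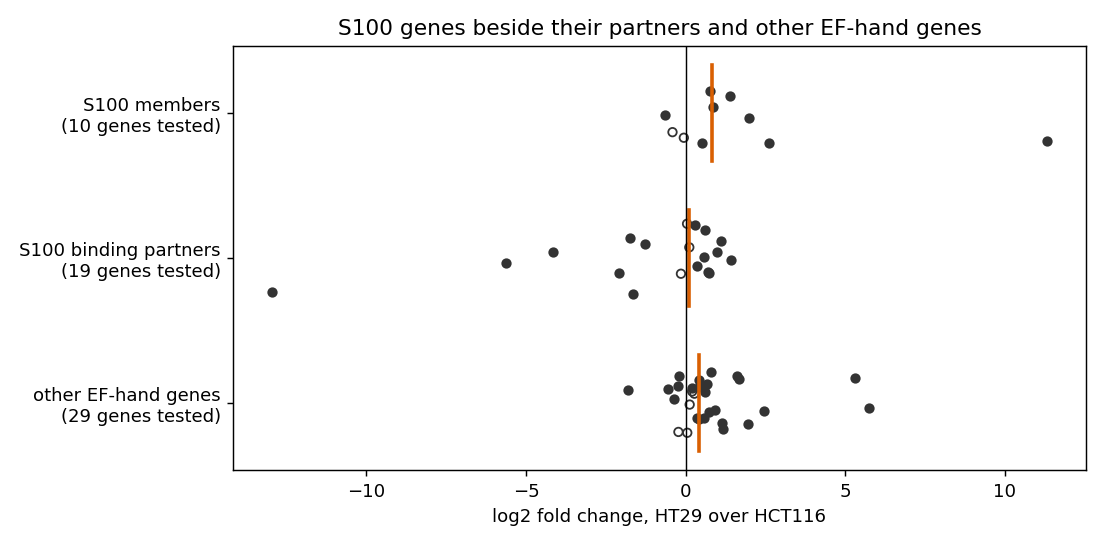
Log2 fold change of HT29 over HCT116 for the 10 S100 genes, 19 of their binding partners and 29 other EF-hand genes, 1 point per gene, filled where called and open where not, with an orange bar at each median. The medians are 0.82, 0.12 and 0.43, the right-most point is S100P, and the left-most is HLTF, whose fitted value depends on the prior count because HT29 had 0 counts. S100P, TRPV6 and RCN3 passed the filter only through HT29, and HLTF and KCNK3 only through HCT116, so their filled points add no support.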

How the data were processed

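Total RNA of HT29 and HCT116 cells was sequenced from NEBNext Ultra libraries. Per the submitters' processing notes, cutadapt 1.9, Trimmomatic 0.39, HISAT2 2.1.0 and featureCounts 2.0.1 were used with hg38. The authors deposited raw counts per gene with an exon length. The strand setting, the treatment of reads with several matches and the annotation release were not stated in the sources used here. Symbols were matched from GENCODE 44 for 61445 of 61544 genes, and the length column equalled the GENCODE exon bases for all 10 S100 genes.

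Counts were scaled by TMM in edgeR 4.0.16 (R 4.3.3), with a mean of at least 1 CPM required. Both comparisons over 4 libraries used edgeR's quasi-likelihood test with a block (1 residual degree of freedom, 20.6 with the shared prior), adjusted by Benjamini-Hochberg at 0.05, and the code was tested on simulated data. Ratios within a line used a prior count of 2 and Clopper-Pearson 95% intervals, which cover counting error only. Copies were searched with minimap2 2.31. Alternatives were DESeq2 1.42.0, other scalings, filters and prior counts, libraries left out, and removal of length and GC trends (mgcv 1.9.3). Named genes were the 10 S100 genes, other S100 genes with a count, 8 best known partners, expressed genes between the outermost S100 genes, LPS response genes, and in each further list at most the 4 largest per comparison and direction. The genes, lists and rules were chosen with earlier results of these data known.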

Additional observations from a re-analysis of the deposited data

Results flagged for a closer look

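For 5 S100 genes the log2 ratio of LPS over control had opposite signs in the lines. S100A6 had −0.18 in HT29 and 0.12 in HCT116, and S100A16 had −0.17 in HT29 and 0.0658 in HCT116. S100A11 had −0.13 and 0.0195, S100A13 had −0.21 and 0.0094, and S100A10 had −0.0068 and 0.17, HT29 before HCT116. In each gene the difference was not tested, since each line had 1 library per condition. The 95% counting intervals of S100A6 excluded 0 in both lines, although its HCT116 ratio was 0.0567 with length and GC trends removed, and for S100A10 in HT29, S100A11 in HCT116, S100A13 in both lines and S100A16 in HCT116 they included 0. The signs of S100A10 in HT29 and of S100A11 and S100A13 in HCT116 turned when library size was the only scaling, and with length and GC trends removed S100A10 in HT29 turned to 0.0244 and S100A11, S100A13 and S100A16 in HCT116 to −0.0068, −0.0524 and −0.0045.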

How the results depend on the processing

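The count of S100 genes called higher in HT29 was 6 or 7 of 10 in every alternative run, with S100P, at 1 count per HCT116 library, among them. The count called lower was 2 with library size alone. MYH9 turned to −0.0374 with library size alone, and ACTN1 to 0.40 with length and GC trends removed. That removal moved the S100 median to 1.02, S100A6 to 1.28, MYH9 to 1.17 and CAPN2 to −0.0003. It also moved S100A10 from 2.62 to 2.28, S100A11 from 1.97 to 1.76 and S100A16 from 1.38 to 1.72. S100A11 and S100A16 were thus nearly level in that setting. Partners that moved included ANXA2 (0.57 to 0.83), ANXA11 (0.97 to 1.49) and AHNAK (1.09 to 1.61). The SE of the main fit does not cover these shifts. Without each library in turn, fitted without the block, S100A14 ran from −0.16 to 0.0363 in the line comparison. In the shared LPS test such fits leave the lines unbalanced, and the log2 fold changes ran from −10.40 to 10.20 for S100P, −1.75 to 1.94 for S100A10, −1.34 to 1.26 for S100A11, −0.87 to 0.83 for S100A16, −0.49 to 0.52 for S100A6, −0.60 to 0.28 for S100A4, −0.50 to 0.25 for S100A13 and −0.0521 to 0.40 for S100A3. The shared LPS test called 0 S100 genes in every alternative, of 7 with an adjusted p in DESeq2. Over all genes it called 34, against 90 with DESeq2, 19 with DESeq2 size factors, 103 with no filter, 136 with a minimum of 5 CPM, 0 without the block and 0 without each library, and the cause was not tested. Between the lines, library size alone called 4596 genes higher in HT29 and 6384 lower, against 5495 and 5633. As a percentage of all TPM, the longest transcript as length gave 1.14 and 1.25 in HT29 and 0.508 and 0.519 in HCT116 (LPS and control), and CPM with no length gave 0.302 and 0.334 in HT29 and 0.15 and 0.147 in HCT116. CACYBP lost its call with library size alone, CETN3 without HCT116 control, and TRPV6 without HT29 with LPS or HCT116 with LPS. No paired analysis was possible because every condition has 1 library with the same replicate number, so a replicate block has nothing to separate, and the blocks fitted were cell line and LPS. The depth limits S100P in HCT116, S100A3 and S100A1, and 1 library per condition limits every statement on LPS.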
